A study of Rattus norvegicus with 18 samples.

Results

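The genes described here are 3 chemokines and a pair of receptors that the resting brain expresses: Cxcl12, Cxcl14 and Cx3cl1, and the receptors Cxcr4 and Ackr3. They were chosen by gene symbol with results of these rat groups already known, they are 5 of the 30735 genes in the count table, and each symbol was found on 1 row. Their group differences are therefore given as a description, with no p-value. Where a member is said to pass or lose a threshold (an adjusted p under 0.05), that describes the processing and is no support for a change. All 5 passed the filter on low counts, which kept 18444 genes.

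The cortical RNA came from 18 adult Sprague Dawley rats aged 8 to 10 weeks, 6 to a group, and every rat gave a library of its own. The groups are called sham, SAH 1d and SAH 7d. SAH (subarachnoid hemorrhage) was made by advancing a nylon filament through the internal carotid artery until it pierced the vessel wall, and sham rats had that surgery with no perforation. SAH rats were sampled 1 or 7 days later. The deposited labels give no day for the sham rats, and the sources used here give no sex. The study's methods name the cortex of the model side, whereas the labels name bilateral cortex and mice, and the identifiers of the genes are rat Ensembl identifiers. All 3 groups share the anesthesia, the neck surgery and the filament, and no allele or drug differs between them.

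CXCL12 is a chemokine that signals through the receptor CXCR4 and is also bound by ACKR3, an atypical receptor that takes CXCL12 out of the extracellular space without activating G proteins. In the brain CXCL12 is made by cells of the vessels, the meninges and some neurons, and it holds or guides leukocytes and progenitor cells that carry CXCR4. CX3CL1, or fractalkine, is a membrane-bound chemokine of neurons that can be shed by proteases, and its receptor CX3CR1 is carried by microglia. CXCL14 is made by some interneurons and by epithelia. CXCR4, CXCL12 and the vasoactive peptide gene Adm are known targets of hypoxia-inducible factors.

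Promoter sequences are shown for the genes that stood apart at SAH 1d, Cxcl12 and Cx3cl1 as the lower genes and Cxcr4 as the higher gene. They are the 250 bases before the annotated start in RefSeq (build GRCr8), and all 5 genes were found there. They lie at chr4:152060531-152060780 on the plus strand for Cxcl12, chr13:42634289-42634538 on the minus strand for Cxcr4, and chr19:10242821-10243070 on the minus strand for Cx3cl1. These are positions on GRCr8 and not on the build of the counts. Capitals mark the core of the hypoxia response element, which was searched as ACGTG and GCGTG on both strands, so that it can also read CACGT or CACGC here.
Cxcl12: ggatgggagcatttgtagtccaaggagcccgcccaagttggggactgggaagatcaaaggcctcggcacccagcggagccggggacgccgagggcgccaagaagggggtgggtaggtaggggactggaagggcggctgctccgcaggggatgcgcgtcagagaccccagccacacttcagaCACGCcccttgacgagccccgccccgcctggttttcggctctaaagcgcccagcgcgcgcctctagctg
Cxcr4: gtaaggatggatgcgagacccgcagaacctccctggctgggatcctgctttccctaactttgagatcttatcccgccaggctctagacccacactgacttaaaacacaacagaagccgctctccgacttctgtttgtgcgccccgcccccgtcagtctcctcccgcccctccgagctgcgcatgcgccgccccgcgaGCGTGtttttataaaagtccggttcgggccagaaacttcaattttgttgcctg
Cx3cl1: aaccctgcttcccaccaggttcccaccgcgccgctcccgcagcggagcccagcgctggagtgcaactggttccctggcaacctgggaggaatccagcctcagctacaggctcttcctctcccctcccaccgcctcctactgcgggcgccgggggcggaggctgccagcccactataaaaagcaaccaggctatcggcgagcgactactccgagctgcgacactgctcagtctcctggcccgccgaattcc
The Cxcl12 window held 1 core, which begins 69 bases before the start, and the Cxcr4 window held 1, which begins 53 bases before it. The Cx3cl1 window held 0. The Ackr3 and Cxcl14 windows, which are not shown, held 3 each. Of all 33469 promoter windows of this length, 36.7% held at least 1 core, so a core in 4 of 5 windows is a description of the letters and not of a bound site. A core was present in Cxcl12, which was lower at SAH 1d, and in Cxcr4, which was higher. Any link between a core and a direction was not tested. The GC content of the 5 windows was 57.6% to 67.6%, against a median of 51.2% over all windows.

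The total counts of the libraries, in units of 1e+06, ranged from 27.3 to 38.3 with a median of 30.7. The library SAH 1d-3 had the largest total. The libraries SAH 1d-3 and SAH 7d-5 stood apart from their groups, and where they bear on a result it is given with them and after leaving them out. SAH 7d-5 held the lowest summed level of 6 neuron markers, 2283 CPM (counts per 1e+06 counts, with the library totals scaled by TMM factors), where the other 5 SAH 7d libraries held 6637 to 9036. Its sums for immune cells were high, with 2548 CPM for the microglia list against 323 to 1064 in the other 5, and 8664 CPM for the monocyte and macrophage list against 161 to 334. Its meningeal fibroblast list summed to 3061 CPM against 250 to 509 in the other 5. Its mural list summed to 274 CPM against 134 to 158. SAH 1d-3 held 715 CPM for the monocyte and macrophage list against 161 to 230 in the other 5 SAH 1d libraries, and 71.2 CPM for the neutrophil list against 6.76 to 15.7. Markers of brain cells were found in every library, with sums of 2283 to 9882 CPM for neurons, 1793 to 5288 CPM for astrocytes and 7694 to 17836 CPM for oligodendrocytes. These lists were not chosen to tell cortex from other brain regions. The choroid plexus list reached 1038 CPM in SAH 1d-6 and 716 CPM in SAH 1d-4, where the sham libraries lay at 1.98 to 64.9. In such bulk tissue, fewer cells of a type and less RNA per cell cannot be told apart.

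On the scale of FPKM, which divides by transcript length and so lets genes be compared, the sham cortex held far more Cx3cl1 than any other member. The mean was 177 ± 19.0 FPKM (SD, n = 6) for Cx3cl1, 35.5 ± 5.20 for Cxcl14 and 17.2 ± 2.31 for Cxcl12. The receptors were lower, with 7.93 ± 1.09 FPKM for Ackr3 and 1.17 ± 0.191 for Cxcr4. These ranges did not overlap between neighbours in the order. The order Cx3cl1, Cxcl14, Cxcl12, Ackr3, Cxcr4 held in 13 of 18 libraries, among them all 6 sham libraries. In 3 SAH 1d libraries Ackr3 lay above Cxcl12, and in SAH 1d-3 both receptors did. In SAH 7d-5 Cxcr4 lay second, under Cx3cl1 alone.

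**Figure D1:**
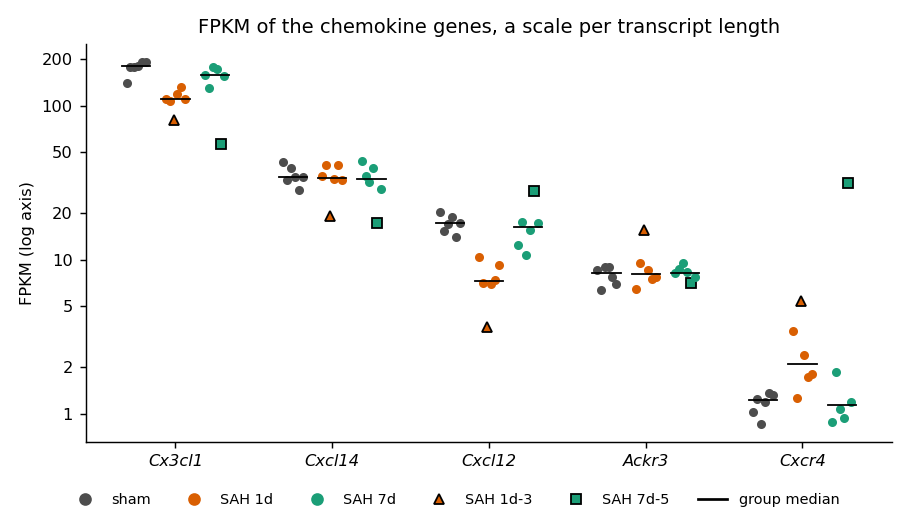
FPKM of the 5 genes on a log axis, with 1 point per rat, the 3 groups side by side within a gene and a line at each group median. Cx3cl1 lies highest in every library, Cxcl12 drops from 14.1 to 20.3 FPKM in sham to 3.65 to 10.4 FPKM at SAH 1d, and the Cxcr4 square of SAH 7d-5 at 31.3 FPKM lies far above the other points of that gene.

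Cxcl12, the ligand of CXCR4, was lower 1 day after SAH, and at 7 days its levels overlapped those of sham. Its level was 78.8 CPM in the lowest sham library, 101 at the median and 126 in the highest. At SAH 1d it was 20.1, 39.5 and 55.7 CPM, and at SAH 7d it was 59.6, 93.4 and 156 CPM. All 6 SAH 1d libraries lay below all 6 sham libraries and below all 6 SAH 7d libraries, whereas the sham and SAH 7d ranges overlapped. The lowest value was in SAH 1d-3 and the highest in SAH 7d-5, whose meningeal fibroblast list was also the highest, at 3061 CPM. The part of those cells in the Cxcl12 values was not tested.

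The log2 fold change of Cxcl12 was -1.33 (SE 0.197, 95% interval -1.75 to -0.90) for SAH 1d versus sham, or 0.398 times the sham level. Without SAH 1d-3 it was -1.19. Against sham, SAH 7d gave -0.07 (95% interval -0.51 to 0.36), and without SAH 7d-5 it was -0.26 (95% interval -0.58 to 0.05). From SAH 1d to SAH 7d Cxcl12 was 2.38 times higher, a log2 fold change of 1.25 (SE 0.260), which became 0.91 (SE 0.158) once both libraries that stand apart were dropped. The threshold was passed between SAH 7d and SAH 1d in 12 of 22 alternatives. The comparisons with sham share the 6 sham libraries.

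The fall of Cxcl12 at SAH 1d was set beside the endothelial marker list, because vessel cells are a known source of CXCL12. The summed CPM of 7 endothelial markers was 234 to 437 in sham and 259 to 355 at SAH 1d, and 1 of the 7 was higher by the test (Cdh5, log2 fold change 1.01) and 0 were lower. The others, with log2 fold changes from -0.45 (Slco1a4) to 0.34 (Flt1), did not pass. In sham the sum was led by Slco1a4, at 3185 to 6537 counts, and Cldn5 was at 0 in several libraries. In SAH 1d-3 Slco1a4 held 1135 counts and Cdh5 held 3330. The log2 ratio of Cxcl12 to this sum was -1.50 ± 0.205 (SD, n = 6) in sham, -2.95 ± 0.627 at SAH 1d and -1.56 ± 0.370 at SAH 7d. The difference of the ratio between SAH 1d and sham, -1.45, was as large as that of Cxcl12 itself. The part of vessel cells in the Cxcl12 values was not tested, and no ratio to the meningeal fibroblast or neuron list was taken.

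**Figure D2:**
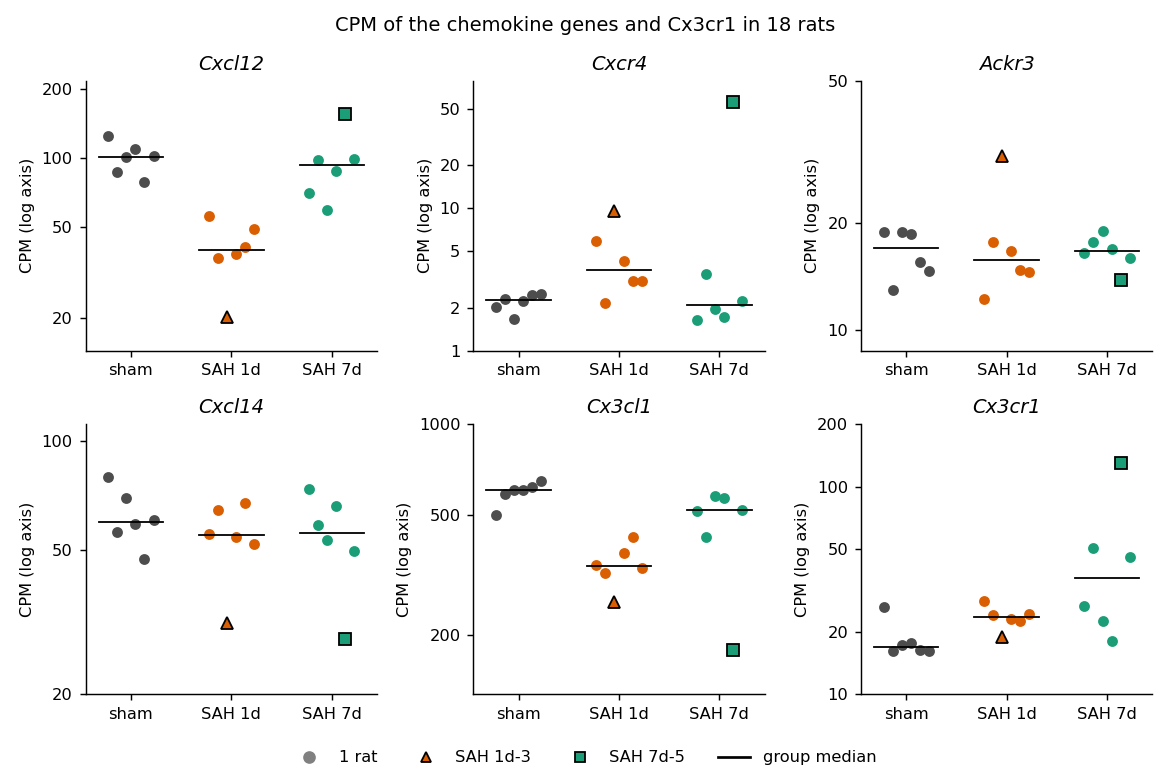
CPM of the 5 genes and of Cx3cr1 on log axes, with 1 point per rat, a line at each group median, a triangle for SAH 1d-3 and a square for SAH 7d-5. Cxcl12 and Cx3cl1 at SAH 1d lie below every sham library, Cxcr4 at SAH 1d lies above the sham range in 5 of 6 libraries, and the square of SAH 7d-5 at 55.9 CPM lies far above the other points of Cxcr4.

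Cxcr4, the signalling receptor of CXCL12, was a rare transcript in sham cortex and was higher at SAH 1d. It held 1.67 CPM in the lowest sham library, 2.27 at the median and 2.51 in the highest, from 44 to 76 counts a library. At SAH 1d it held 2.15, 3.68 and 9.54 CPM, and 5 of 6 libraries lay above every sham library. The exception was SAH 1d-2, and the highest value was in SAH 1d-3.

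The log2 fold change of Cxcr4 for SAH 1d versus sham was 1.09 (SE 0.315, 95% interval 0.41 to 1.77), and without SAH 1d-3 it was 0.75 (95% interval 0.24 to 1.25). The call was lost when all 18 libraries entered 1 fit, with the replicate number as a block, on log2(FPKM + 1) without a filter, and without sham-3. At SAH 7d the gene held 1.64 CPM in the lowest library and 2.10 at the median, and 1 library, SAH 7d-5, held 55.9 CPM where the next highest held 3.43. The fold change for SAH 7d versus sham, 2.34 on the log2 scale (SE 0.918), was 0.01 (95% interval -0.46 to 0.47) without that library. Without both libraries that stand apart, Cxcr4 at SAH 7d was lower than at SAH 1d by a log2 fold change of -0.76 (95% interval -1.39 to -0.13), where all 12 libraries gave 1.27 (95% interval -0.74 to 3.28).

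Cxcr4 is carried by leukocytes, and the neutrophil and macrophage lists were high in both libraries with the most Cxcr4. In SAH 7d-5 the neutrophil list reached 220 CPM, made up of Mmp8 at 130 CPM and Csf3r at 89.2 CPM, while the neutrophil genes S100a8, S100a9 and Cxcr2 held 0.212, 0.696 and 0.272 CPM and Mpo held 0. The T cell list reached 251 CPM there, of which Cd8a made up 243 CPM. The chains of the T cell receptor complex Cd3e, Cd3d and Cd3g held 1.997, 0.514 and 1.51 CPM, which were low levels but each the highest of all 18 libraries. Of the B cell list, Pax5 was at 0 in that library and Ms4a1 held 0.212 CPM. SAH 1d-3 differed from it, with 30.5 CPM of S100a9 and 6.67 CPM of Cxcr2, each the highest of all 18 libraries.

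At SAH 1d, 2 of the 3 neutrophil genes tested (Csf3r, with an adjusted p of 0.00339 by edgeR, and S100a9, with 0.0213), 3 of the 5 monocyte and macrophage genes tested and 1 of the 3 T cell genes tested (Cd8a) were higher by the test. The other genes of these lists were too low to be tested or did not pass. The log2 ratio of Cxcr4 to the neutrophil list was -0.71 ± 0.756 (SD, n = 6) in sham, -1.66 ± 0.987 at SAH 1d and -2.07 ± 0.581 at SAH 7d. In SAH 7d-2 and SAH 7d-6 that list was mostly Csf3r, with 672 and 414 counts where S100a9 held 7 and 8. The ratio there thus rested largely on 1 gene of the list. With the mean log2 CPM of the list in place of its sum, the difference between SAH 7d and sham turned from -1.36 to 0.23. Its log2 ratio to the microglia list was -7.23 ± 0.473, -6.36 ± 0.832 and -7.62 ± 1.09 in the same order. The part of these cells in the Cxcr4 values was not tested.

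The balance of ligand and receptor was taken as the FPKM of Cxcl12 over that of Cxcr4. It was 10.4 to 20.01 in the sham libraries and 0.681 to 5.55 at SAH 1d, with no overlap. At SAH 7d it was 9.32 to 16.7 in 5 libraries and 0.897 in SAH 7d-5.

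Ackr3, the scavenging receptor of CXCL12, showed no shift between the group ranges. It held 12.9 to 18.9 CPM in sham, 12.2 to 30.7 at SAH 1d and 13.9 to 19.0 at SAH 7d, and the groups overlapped. The highest value was in SAH 1d-3, where the next highest SAH 1d library held 17.7 CPM. The log2 fold change was 0.11 (95% interval -0.32 to 0.54) for SAH 1d versus sham and -0.13 (95% interval -0.39 to 0.14) without SAH 1d-3. At SAH 7d it was 0.01 (95% interval -0.24 to 0.26), the narrowest interval among the members in that comparison.

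Cxcl14 also had group ranges that overlapped. Its median was 59.8 CPM in sham, 54.8 at SAH 1d and 55.7 at SAH 7d, and the lowest values of the SAH groups were 31.3 CPM in SAH 1d-3 and 28.4 CPM in SAH 7d-5. The log2 fold change was -0.19 (95% interval -0.55 to 0.16) for SAH 1d versus sham and -0.17 (95% interval -0.59 to 0.25) for SAH 7d versus sham. Both moved toward 0 without these libraries, to -0.08 and -0.03. In SAH 7d-5 the interneuron list was low as well, with 402 CPM where the other 5 libraries held 1060 to 1221. In SAH 1d-3 it was instead the highest of its group, with 1379 CPM where the other 5 held 966 to 1160.

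Cx3cl1, the neuronal ligand of microglial CX3CR1, was lower in every SAH 1d library than in every sham library. It held 500 CPM in the lowest sham library, 605 at the median and 649 in the highest. At SAH 1d it held 258, 338 and 424 CPM. At SAH 7d it held 179, 518 and 580 CPM, and the lowest value, in SAH 7d-5, was the lowest of all 18 libraries.

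The log2 fold change of Cx3cl1 for SAH 1d versus sham was -0.80 (SE 0.107), 0.576 times the sham level, and -0.73 (SE 0.0865) without SAH 1d-3. At SAH 7d it was -0.35 (95% interval -0.84 to 0.13), and without SAH 7d-5 it was -0.18 (95% interval -0.37 to 0.01). From SAH 1d to SAH 7d it was 0.44 (95% interval -0.07 to 0.94) with all 12 libraries and 0.53 (95% interval 0.32 to 0.75) without both libraries that stand apart.

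The markers of the neuron list moved with Cx3cl1. At SAH 1d all 6 markers of the neuron list were lower by the test, among them Snap25 (log2 fold change -0.73), Nefl (-0.65) and Camk2a (-0.91), and the summed list had a median of 8719 CPM in sham and 5461 CPM at SAH 1d. The log2 ratio of Cx3cl1 to the list was -3.83 ± 0.134 (SD, n = 6) in sham, -3.996 ± 0.113 at SAH 1d and -3.90 ± 0.148 at SAH 7d. The ratio thus differed by -0.17 where the gene itself differed by -0.80. Of the 7 interneuron markers tested, 1 was lower by the test at SAH 1d (Gad1, log2 fold change -0.33). The others, with log2 fold changes of -0.40 to -0.17, did not pass.

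**Figure D3:**
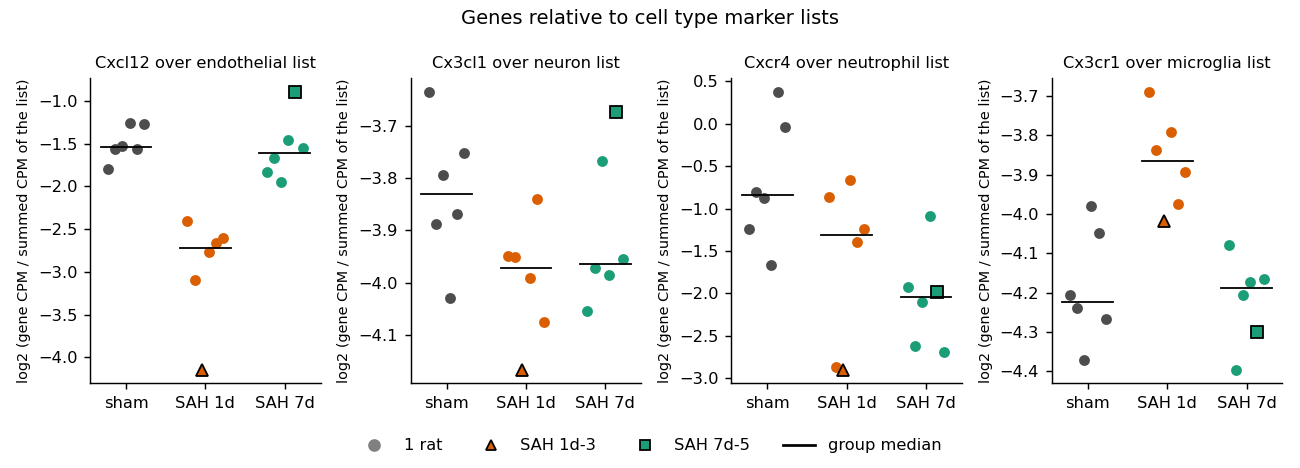
Log2 ratio of a gene's CPM to the summed CPM of a cell type marker list, with 1 point per rat and a line at each group median. Cxcl12 over the endothelial list lies lower at SAH 1d than in both other groups with no overlap, whereas Cx3cl1 over the neuron list stays between -4.17 and -3.63 in all 18 libraries.

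Cx3cr1, the fractalkine receptor, is a partner gene and was tested. It was chosen by its known role, but with earlier results of these data known, so its adjusted p-values describe the fits. It held 16.0 to 26.3 CPM in sham, 18.8 to 28.0 at SAH 1d and 17.9 to 129 at SAH 7d. The groups overlapped, and 4 of 6 SAH 7d libraries lay above every sham library. Its log2 fold change was 0.36 (edgeR quasi-likelihood test, adjusted p = 0.0649) for SAH 1d versus sham and 1.42 (adjusted p = 0.214) for SAH 7d versus sham, so neither passed. The first did pass in 8 of 22 alternatives. Among them were the fit without SAH 1d-3, at 0.41 with an edgeR adjusted p of 0.0280, the fit without sham-1, the replicate number as a block (edgeR adjusted p = 0.0322), DESeq2 (adjusted p = 0.0494) and all FPKM scales. The second passed by DESeq2 alone (adjusted p = 0.0315), and without SAH 7d-5 it was 0.85 (edgeR adjusted p = 0.177).

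Relative to the microglia list, Cx3cr1 had a log2 ratio of -4.19 ± 0.146 (SD, n = 6) in sham, -3.87 ± 0.120 at SAH 1d and -4.22 ± 0.112 at SAH 7d. The high value of SAH 7d-5 thus went with a high microglia list. At SAH 1d 1 of the 6 microglia genes tested was lower by the test, P2ry12 with a log2 fold change of -1.19. The FPKM of Cx3cl1 over that of Cx3cr1 was 8.05 to 17.2 in sham and 5.18 to 8.01 at SAH 1d. At SAH 7d it ran from 0.587 in SAH 7d-5 to 13.5.

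**Figure D4:**
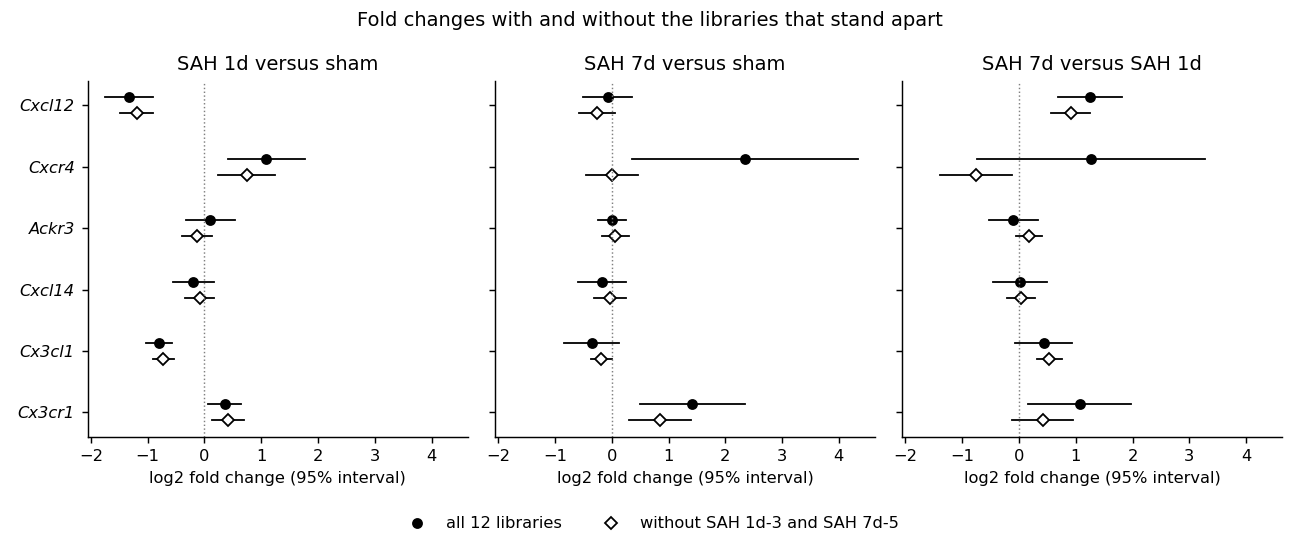
Log2 fold changes of the 5 genes and of Cx3cr1 in the 3 comparisons, with 95% intervals, from all 12 libraries (filled) and after leaving out SAH 1d-3 and SAH 7d-5 (open). The Cxcr4 points for SAH 7d versus sham move from 2.34 to 0.01, whereas the Cxcl12 and Cx3cl1 points for SAH 1d versus sham stay at or below -0.73.

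Read against all genes, 1 of the 5 members was higher (Cxcr4) and 2 were lower (Cxcl12 and Cx3cl1) at an adjusted p under 0.05 for SAH 1d versus sham. Of all tested genes, 14.9% were higher and 10.5% were lower there. On log2(FPKM + 1) the same comparison gave 3703 higher and 983 lower genes, where the counts gave 2748 and 1936. Groups that did not overlap were found for 7.89% of genes as higher and 5.41% as lower, and for Cxcl12 and Cx3cl1 among the members, both lower.

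Between SAH 7d and sham, 0 of the 5 members and 0 of the 18444 genes (0%) passed the edgeR test, with 2842 genes at an unadjusted p under 0.05, 459 genes by DESeq2 and 9 with all 18 libraries in 1 fit. Groups did not overlap for 0.797% of genes as higher and 0.428% as lower, and for none of the members. Between SAH 7d and SAH 1d, 1 member was higher (Cxcl12) and 0 were lower, against 0.282% and 1.08% of all genes. The split of 52 higher and 200 lower genes was 39 and 367 on log2(FPKM + 1), 367 and 645 by DESeq2 and 3 and 26 with the replicate block. Groups did not overlap for 0.938% of genes as higher, with Cxcl12 among them, and for 2.11% as lower. Because the members were selected on these contrasts, nothing is read from their shares.

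The genes that work beside CXCL12 were taken as 18 genes of receptor coupling, desensitisation, shedding and alternative ligands, of which 17 were tested and Mif was not analysed here. This list and those below were fixed by known role, but with earlier results of these data known. Their adjusted p-values are therefore given as a description of the fits. At SAH 1d 5 were higher and 2 lower, where 14.9% of all tested genes were higher and 10.5% lower. Rgs16, which speeds the switching-off of the G proteins under CXCR4, rose by a log2 fold change of 1.56 (edgeR adjusted p = 0.000181), from 8.25 to 11.3 CPM in sham to 19.9 to 49.4 CPM. Adm, the vasoactive peptide adrenomedullin that ACKR3 also binds, rose by 2.05 (edgeR adjusted p = 0.00337), and its ranges of 1.06 to 2.02 CPM in sham and 2.23 to 13.4 CPM at SAH 1d did not overlap. The 2 lower genes had small log2 fold changes, -0.35 for the receptor kinase Grk2 (edgeR adjusted p = 0.0333) and -0.25 for Gnai1 (0.0489), and both calls were lost in many of the 22 alternatives, 11 for Grk2 and 17 for Gnai1.

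Cd74, a chain of MHC class II processing that also binds MIF together with CXCR4, went its own way. It held 7.63 to 16.6 CPM in sham, 18.2 to 35.6 at SAH 1d and 34.5 to 358 at SAH 7d. The rise at SAH 1d was 0.88 on the log2 scale (edgeR adjusted p = 0.0130), and from SAH 1d to SAH 7d it was 2.86 (edgeR adjusted p = 0.0124). For SAH 7d versus sham the log2 fold change was 3.75 with an edgeR adjusted p of 0.134, although all 6 SAH 7d libraries lay above all 6 sham libraries. By DESeq2, with all 18 libraries in 1 fit, and without SAH 7d-4, that difference passed. It was the 1 gene of its list to pass between SAH 7d and SAH 1d, and there the call was lost with the replicate block (edgeR adjusted p = 0.103). The other 16 of the list did not pass there. For SAH 7d versus sham 0 of 17 passed, with 4 at an unadjusted p under 0.05, beside 2842 of all 18444 tested genes. Over all tested genes, the shares to set beside the SAH 7d counts of this list and those below were 0% against sham. Against SAH 1d they were 0.282% higher and 1.08% lower.

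Among 10 genes of fractalkine shedding and binding, 3 were higher at SAH 1d and 0 lower, beside 14.9% and 10.5% of all tested genes. Rhbdf2, the partner that brings the sheddase ADAM17 to the surface, rose by a log2 fold change of 2.74 (edgeR adjusted p = 0.000802), from 0.629 to 1.44 CPM in sham to 2.94 to 16.4 CPM. Adam17 rose by 0.66 (edgeR adjusted p = 0.0197). Itgb3, an integrin chain that can bind fractalkine, rose by 2.40 (edgeR adjusted p = 0.0191) at low counts, with 0 to 0.533 CPM in sham. The other 7, among them Adam10, Ctss and Cx3cr1, did not pass. In both comparisons of SAH 7d 0 of 10 passed by edgeR, with 5 and 3 at an unadjusted p under 0.05 against sham and SAH 1d, and 4 and 1 by DESeq2. Of all 18444 tested genes, 2842 and 2713 were at an unadjusted p under 0.05 there, and 459 and 1012 passed by DESeq2.

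Of 15 other homeostatic chemokines and their receptors, 8 passed the filter on low counts. At SAH 1d, Cxcl16, Cxcl13 and Ccr7 were higher and Ccl27 was lower, beside 14.9% of all tested genes higher and 10.5% lower. Cxcl16, a membrane-bound chemokine shed like fractalkine, rose by a log2 fold change of 2.93 (edgeR adjusted p = 0.00104), from 5.12 to 11.9 CPM in sham to 26.0 to 168 CPM, with no overlap. Ccl27 had a log2 fold change of -0.64 (edgeR adjusted p = 0.0141), and of the 6 SAH 1d libraries SAH 1d-3 alone, with 14.6 CPM, lay within the sham range of 13.6 to 16.1 CPM. Cxcl13 and Ccr7 rose by 1.94 and 1.72 (edgeR adjusted p = 0.0211 and 0.0160), and both were rare, with sham medians of 0.553 and 0.128 CPM. In the comparisons of SAH 7d 0 of 8 passed by edgeR, with 2 and 1 at an unadjusted p under 0.05 against sham and SAH 1d. The latter counts over all 18444 tested genes were 2842 and 2713.

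The medians of the log2 fold changes at SAH 1d were 0.27 over the CXCL12 partner genes, 0.34 over the fractalkine genes and 0.15 over the other chemokines tested, against 0.01 over all tested genes. Without SAH 1d-3 they were 0.01, 0.25 and 0.26, so the median of the CXCL12 partner genes rested on that library. At SAH 7d they were 0.08, 0.79 and 0.22, against -0.0039 over all tested genes. Without SAH 7d-5 they were 0.12, 0.41 and 0.31, and the log2 fold change of Adam17, one of the fractalkine genes, was then 0.15. SAH 1d-3 held the highest SAH 1d value of Rgs16, Rhbdf2, Adam17, Itgb3, Adm, Cd74, Cxcl16, Ccr7 and Cxcl13, and without it these 9 genes still passed at SAH 1d, at smaller log2 fold changes. Those of Cxcl16, Itgb3 and Cxcl13 moved most, to 2.23, 1.74 and 1.34. With all 18 libraries in 1 fit, Cd74, Adam17, Itgb3, Ccl27 and Cxcl13 no longer passed at SAH 1d. The call of Cxcl13 was also lost with the replicate block (edgeR adjusted p = 0.0537) and on log2(FPKM + 1) with and without a filter, and those of Itgb3 and Ccr7 on that scale without a filter.

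**Figure D5:**
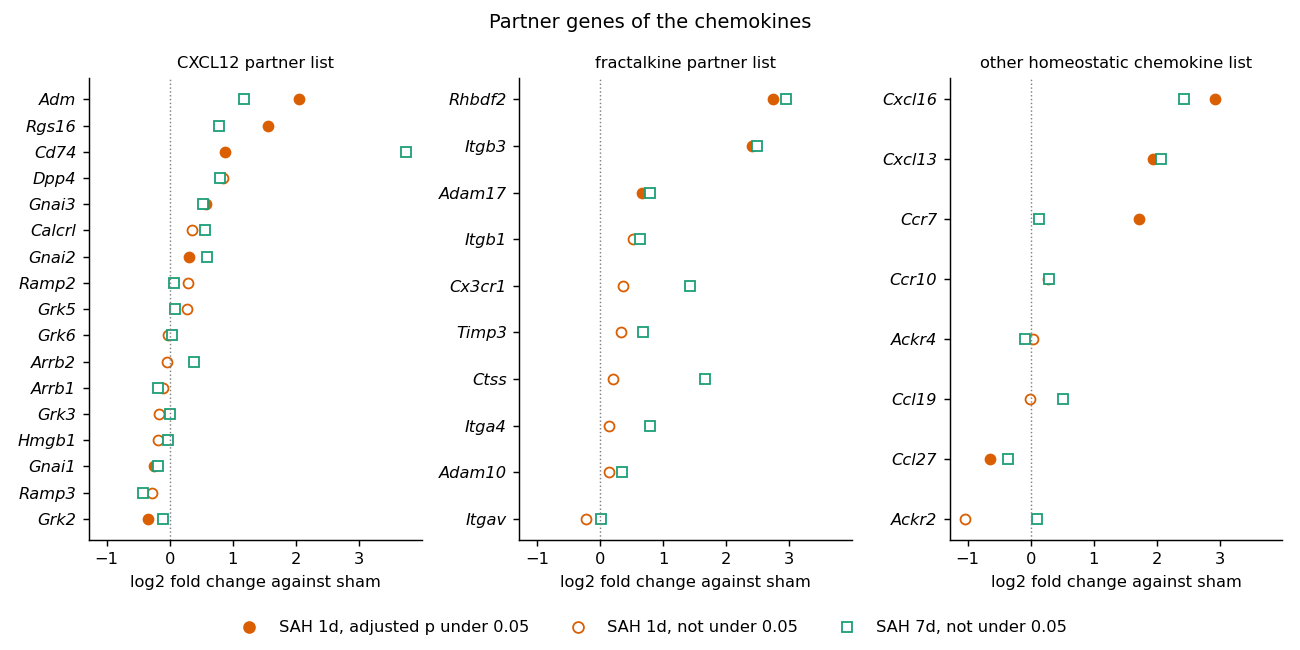
Log2 fold changes against sham of the tested partner genes in 3 lists, with circles for SAH 1d (filled at an edgeR adjusted p under 0.05) and squares for SAH 7d. Filled circles mark 7 genes of the CXCL12 list, 3 of the fractalkine list and 4 of the other chemokines, and the SAH 7d square of Cd74 lies farthest to the right of its list at 3.75.

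The genes whose levels followed a member most closely were taken by Spearman's rho over the 18 libraries, among 13001 genes with a mean of at least 1 CPM. These libraries share the 3 groups and both libraries that stand apart, so rho is a description. Cx3cl1 had the closest neighbours, with rho of 0.98 for Atp2a2 (a calcium pump of the endoplasmic reticulum) and Slitrk1 (a synaptic protein), and of -0.99 for Slc12a4 and -0.97 for Ptbp1 (a splicing repressor of the neuronal program). Cxcl12 was followed by Ccng2 (0.90), Zfand6 (0.89) and Prom1 (0.86), and ran opposite to Uspl1 (-0.92), Xpot (-0.91) and Ciapin1 (-0.91).

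Cxcl14 was followed by Acsbg1 (rho 0.91), Csnk1g2 (0.88) and Pcdhgc3 (0.84). Cxcr4 went with Fam241a (0.86), Plk4 (0.85) and Zfp646 (0.85) and ran opposite to Slc25a23 (-0.92) and Gls2 (-0.89). Ackr3 had the loosest neighbours, led by Cstf2 (0.79). Few of these neighbours kept their place when both libraries that stand apart were dropped. Of the 6 genes most like or most opposite, 0 remained for Cxcl12, 2 for Cxcr4, 0 for Ackr3, 4 for Cxcl14 and 3 for Cx3cl1. Between the members themselves rho was highest for Cxcl12 with Cx3cl1, at 0.44 over 18 libraries and 0.65 over the 16 without both libraries that stand apart. Cx3cl1 and Cx3cr1 ran opposite, with rho of -0.69 over 18 libraries and -0.72 over 16.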

How the data were processed

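The unit of the main table is the count, a whole number for each gene in each library, deposited with no scaling. The authors also deposited FPKM of the same genes. Per the study's methods, trimmed reads were aligned to Rnor_6.0, whereas the submitters' processing notes list fastp, HISAT2, DESeq2 1.16.1 and mm9. The program that counted reads, and whether it used strand, is not given in the sources used here. Column names, which equal the deposited descriptions, gave the groups. The SAH libraries bear other codes as titles.

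The function filterByExpr, run on the 18 libraries together, chose the 18444 genes tested. Counts were scaled by TMM, and 12 libraries at a time were compared by the two-sided quasi-likelihood test of edgeR 4.0.16 in R 4.3.3, with Benjamini-Hochberg adjustment over all genes tested. Each rat is a replicate. The tests were checked on simulated data. Figures were drawn with matplotlib 3.10.9. The members and lists were chosen with earlier results of these data known. Beside the members and Cx3cr1, the named genes are, per list and comparison, up to 3 with the smallest adjusted p in each direction among those under 0.05, and per member the 3 genes highest and lowest in rho. Some genes that this rule names are not reported here. Marker genes, Ctss and Adam10 were named after their values were seen.

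Alternatives were DESeq2 1.42.0 (its size factors, and its Wald test), no filter on low counts, 10 counts in every library, all 18 libraries in 1 fit, the replicate number as a block, limma 3.58.1 on log2(FPKM + 1) and log2(FPKM + 0.1) where the mean FPKM reached 0.5, the former also unfiltered, and leaving out libraries. No pair of libraries of a group was alike within sampling noise, with the lowest chi-square per gene at 13.9.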

Additional observations from a re-analysis of the deposited data

Results flagged for a closer look

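In the SAH 7d group, SAH 7d-5 lay far from the other 5 libraries for several of the genes, by a test of the gap to the nearest library against the range of the group (Dixon). It held 55.9 CPM of Cxcr4, where the nearest library held 3.43, and 129 CPM of Cx3cr1, where the nearest held 50.5. Among the partner genes it held 131 CPM of Adam17, 27.3 of Rhbdf2, 4.84 of Itgb3, 152 of Cxcl16, 10.9 of Cxcl13 and 7.29 of Adm, each the highest of the group, and 46.6 CPM of Gnai1, the lowest. The monocyte and macrophage list of this library summed to 8664 CPM and its neuron list to 2283 CPM, and their part in these values was not tested.

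In the SAH 1d group, SAH 1d-3 lay far from the other 5 libraries for Ackr3, with 30.7 CPM where the nearest held 17.7. It was also the highest for Cxcl16 at 168 CPM, Rgs16 at 49.4, Cd74 at 35.6, Rhbdf2 at 16.4 and Itgb3 at 3.40. In sham, Cx3cr1 in sham-1 at 26.3 CPM, Adam17 in sham-1 at 39.8 CPM and Cxcl13 in sham-4 at 1.20 CPM lay apart. Of 54 groups of 6 checked, 18 held such a library, 9 of them SAH 7d-5 and 6 of them SAH 1d-3. For independent values with a normal distribution the cut would give about 1 in 20 groups. The groups here share libraries and were taken as CPM with no log scale, so 18 of 54 is not set against that rate.

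The response differed between the times after SAH for Cxcl12, whose log2 fold change from SAH 1d to SAH 7d was 1.25, and for Cd74, where it was 2.86 (edgeR adjusted p = 0.0124). Cxcl12 was a gene chosen by name with these groups known, and its value is a description.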

How the results depend on the processing

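For Cxcl12 and Cx3cl1 at SAH 1d versus sham, all 22 alternatives gave the same sign and passed the threshold, with log2 fold changes of -1.45 to -1.15 and -0.87 to -0.69. For Cxcl12 from SAH 1d to SAH 7d, the sign held in all 22 and the threshold was passed in 12. Cxcr4 at SAH 1d passed in 18 of 22. These counts of passing fits are no support for a change, since the members were chosen with results of these groups known. Cxcr4 at SAH 7d versus sham had log2 fold changes of 0.57 with the replicate block, 0.65 on log2(FPKM + 1) with and without a filter, 0.77 on log2(FPKM + 0.1), 0.0056 with SAH 1d-3 and SAH 7d-5 left out, and 0.0056 (without SAH 7d-5) to 2.57 with each library left out. Against SAH 1d its sign turned, to -0.44 with the block and -0.76 with SAH 1d-3 and SAH 7d-5 left out, and it was -1.10 (without SAH 7d-5) to 1.61 with each library left out. On log2(FPKM + 0.1) the median over all genes for SAH 1d versus sham was 0.11.

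The genes passing for SAH 1d versus sham numbered 2462 with all 18 libraries in 1 fit, against 4684. Against sham, SAH 7d gave 459 by DESeq2, 9 with all 18 libraries in 1 fit, 1 on log2(FPKM + 1) without a filter and 0 to 3 with each library left out (3 without SAH 7d-4), against 0. Between SAH 7d and SAH 1d there were 1012 by DESeq2, 779 with all 18 libraries, 29 with the block, 406 and 403 on log2(FPKM + 1) and log2(FPKM + 0.1), 474 on the former without a filter, 2512 with SAH 1d-3 and SAH 7d-5 left out, and 102 (without SAH 7d-2) to 1545 (without SAH 7d-5) with each library left out, against 252.

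Of the CXCL12 partner genes, 3 passed at SAH 1d with all 18 libraries in 1 fit and 4 to 9 with each library left out, against 7. At SAH 7d against sham 3 passed by DESeq2, 1 with all 18 libraries and 0 to 1 with each left out. Against SAH 1d 0 passed with the block, 2 with SAH 1d-3 and SAH 7d-5 left out and 1 to 2 with each left out. Of the fractalkine genes at SAH 1d, 1 passed with all 18 libraries, 6 on both FPKM scales, 5 with SAH 1d-3 and SAH 7d-5 left out and 3 to 5 with each left out, against 3. By DESeq2 4 and 1 passed at SAH 7d against sham and SAH 1d. Of the other chemokines at SAH 1d, 2 passed with all 18 libraries and 2 on log2(FPKM + 1) with and without a filter, against 4. By DESeq2 1 passed for SAH 7d versus sham, and for SAH 7d versus SAH 1d 2 passed with SAH 1d-3 and SAH 7d-5 left out and 0 to 1 with each left out.

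With the mean log2 CPM of a marker list in place of its sum, the ratio of Cxcr4 to the neutrophil list differed by 0.23 for SAH 7d versus sham and 0.61 for SAH 7d versus SAH 1d, and that of Cx3cr1 to the microglia list by 0.60 for SAH 1d versus sham and 0.20 for SAH 7d versus sham. Of the 6 genes most like or opposite a member, Pearson's r after subtracting group means kept 1 for Cxcl12, 0 for Cxcr4 and 1 each for Ackr3, Cxcl14 and Cx3cl1, and leaving both of these out kept 0, 2, 0, 4 and 3. The cause of these changes was not tested.

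Same-numbered libraries did not deviate together. With 6 pairs in each comparison, 0, 0 and 1 pairs had a correlation over 0.1, and 0, 3 and 2 of 12 libraries correlated best with their own number, so the samples share only a number. The block gave 3979 genes for SAH 1d versus sham and 0 for SAH 7d versus sham. Depth limits the rarest genes most, with 44 counts of Cxcr4 in its lowest sham library, and 6 of the other chemokines were too low to be tested.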
